A study of Mus musculus with 8 samples.

Results

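The genes described here are 51 mouse genes of DNA replication and mitosis, 27 of replication and S phase and 24 of mitosis. These genes were chosen by symbol with earlier results of these data known, and were divided by textbook role. They were followed in an array study of cells induced to undergo EMT, the epithelial-mesenchymal transition, in which epithelial cells take on a fibroblast-like state. Of the 51, 50 had at least 1 probe set annotated to them alone, out of 18193 such genes on the array. Ccnb1 had none and is not analysed here, which leaves 23 mitotic genes. Where a gene had several probe sets, as 36 of the 50 did, the one with the highest mean over the arrays was used.

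The stimulated cells had received recombinant human TGF-β1 and EGF, each at 3 ng/mL, for 24 h, and the resting cells had spent the same time without either factor. All cells, resting ones included, had been seeded overnight in DMEM with 10% FCS and then kept for 24 h in K-1 medium, in which the labels list insulin and transferrin at 5 µg/mL each. Stimulation took place in K-1 medium too. The lines were EpH4 and NMuMG, of mammary gland origin, and mProx and MCT, of kidney tubular origin. Each line gave 1 stimulated and 1 resting array, 8 arrays in all. EpH4 carries the label of EMT resistance. The labels do not state the number of cultures pooled or sampled for an array. The p-values below rest on the spread from line to line. With 1 array per line and condition, that spread also holds any variation between cultures and between arrays.

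Cells that divide first license their replication origins by loading the MCM helicase with Cdc6 and Cdt1, and cyclin E with CDK2 then starts S phase. E2F transcription factors switch on most genes of licensing, DNA synthesis and nucleotide supply at the border of G1 and S phase. The genes of mitosis are switched on later, in G2, mainly through promoters with a CHR element and CCAAT boxes, which the MuvB complexes and NF-Y bind. TGF-β is a classical inhibitor of epithelial cell growth that acts in G1, whereas EGF is a growth factor for the same cells.

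All values below are log2 levels, that is, log2 of the array signal plus an offset of 10.6, quantile-normalised over the 8 arrays, and a change is stimulated minus resting. A gene was tested where its mean level reached 5.27, which 12697 genes and all 50 members did. Members are called dim on an array where they were under 5.27 there, and the size of a difference between dim values is inexact. Cdc6, Ccne1, Ccne2 and Cdc25c were dim in resting NMuMG, and Tyms on both EpH4 arrays and in stimulated NMuMG. Each array measures a whole culture, so fewer cycling cells and less RNA per cycling cell cannot be told apart.

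The arrays differed in brightness before normalisation, with median signals of 41.5 to 59.7. On the values as deposited, all tested genes together had a median change of -0.28 for EpH4, -0.11 for mProx, -0.24 for MCT and 0.34 for NMuMG, and normalisation brings these close to 0. Of 5 kidney tubule markers measured, Pax8 and Cdh16 were at least 8.99 on all 4 kidney arrays and at most 5.87 on the mammary arrays, while Lrp2 and Cubn overlapped between the tissues and Lhx1 was at most 5.61 on any array. Of 5 mammary luminal markers, Elf5 was dim on all 8 arrays, Gata3 reached 8.37 in EpH4 and at most 5.54 elsewhere, and the milk protein gene Csn3 went against the labels, with up to 10.63 in MCT and at most 5.46 on the mammary arrays. On the kidney arrays 4 to 5 of 7 simple epithelium markers were at or over 5.27, and on the mammary arrays 5 to 6. The adhesion gene Cdh1 was dim in both kidney lines, as was Cldn7, which was dim in NMuMG as well. Krt18 was at least 9.01 and Epcam at least 6.47 on all 4 kidney arrays. Of 5 endothelial markers 0 to 2 were at or over 5.27 on an array, Pecam1 and Tie1 on none, while Kdr reached 6.77. Of 5 leukocyte markers 3 to 4 were at or over 5.27, with Ptprc dim on all 8 arrays. Cd68 reached 7.25, Adgre1 6.67 and Lyz2 6.54. Of 6 fibroblast markers 2 to 5 were at or over 5.27, with Dcn at 10.56 in resting mProx. The part of other cells in the member levels was not tested.

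The promoter windows of the 2 gene groups differ in how often they hold the E2F and CHR motifs, and examples of each are shown because the motifs name the usual control of each group. RefSeq windows of 300 bases, 250 before and 50 after the gene start (assembly GRCm38.p6), were matched for 40 of the 50 members. An E2F motif (TTTCCCGC, TTTCGCGC, TTTGGCGC or TTTGCCGC on either strand) was present in 9 of 22 replication windows (40.9%), in 1 of 18 mitotic windows (5.56%) and in 2.26% of all 32851 windows. A CHR motif (TTTGAA or TTCGAA) together with CCAAT, on either strand, was present in 4 of 22 replication windows (18.2%), in 14 of 18 mitotic windows (77.8%) and in 7.52% of all windows. A match of letters is a description and not a binding site, and no match says only that these letters are not in the window. Below, the windows are written 5′ to 3′ on the gene's strand, with E2F motifs in capitals in the first 3 and CHR and CCAAT motifs in capitals in the last 3. They are Cdc6 at chr11:98907901-98908200 (plus strand), Rfc3 at chr5:151651159-151651458 (minus), Mcm6 at chr1:128359656-128359955 (minus), Plk1 at chr7:122159185-122159484 (plus), Aurka at chr2:172370521-172370820 (minus) and Cenpa at chr5:30666636-30666935 (plus). In Mcm6, 2 of the E2F motifs lie on opposite strands and overlap by 4 letters, and the Rfc3 window also holds CHR and CCAAT letters, which are not in capitals there.
Cdc6: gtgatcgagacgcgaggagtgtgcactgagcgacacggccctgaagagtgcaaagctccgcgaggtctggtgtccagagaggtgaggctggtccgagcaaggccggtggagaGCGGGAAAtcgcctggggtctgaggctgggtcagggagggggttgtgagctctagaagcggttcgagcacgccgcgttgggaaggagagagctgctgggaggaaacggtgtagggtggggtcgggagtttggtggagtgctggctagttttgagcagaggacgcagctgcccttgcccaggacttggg
Rfc3: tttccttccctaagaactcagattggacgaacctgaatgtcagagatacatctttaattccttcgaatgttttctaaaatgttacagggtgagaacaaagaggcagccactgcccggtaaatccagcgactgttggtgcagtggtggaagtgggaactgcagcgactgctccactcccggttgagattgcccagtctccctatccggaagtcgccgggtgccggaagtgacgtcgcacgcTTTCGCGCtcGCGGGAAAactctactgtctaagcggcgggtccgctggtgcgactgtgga
Mcm6: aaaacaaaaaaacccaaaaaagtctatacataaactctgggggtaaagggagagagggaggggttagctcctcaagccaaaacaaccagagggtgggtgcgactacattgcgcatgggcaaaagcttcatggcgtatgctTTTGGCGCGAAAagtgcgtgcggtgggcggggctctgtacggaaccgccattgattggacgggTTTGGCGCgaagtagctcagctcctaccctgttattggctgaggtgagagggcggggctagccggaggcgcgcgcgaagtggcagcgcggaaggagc
Plk1: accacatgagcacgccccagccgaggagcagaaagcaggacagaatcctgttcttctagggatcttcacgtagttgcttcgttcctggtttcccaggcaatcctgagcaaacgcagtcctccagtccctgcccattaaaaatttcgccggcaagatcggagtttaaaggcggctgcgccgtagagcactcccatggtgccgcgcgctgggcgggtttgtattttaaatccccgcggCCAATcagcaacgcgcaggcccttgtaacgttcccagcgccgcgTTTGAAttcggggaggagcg
Aurka: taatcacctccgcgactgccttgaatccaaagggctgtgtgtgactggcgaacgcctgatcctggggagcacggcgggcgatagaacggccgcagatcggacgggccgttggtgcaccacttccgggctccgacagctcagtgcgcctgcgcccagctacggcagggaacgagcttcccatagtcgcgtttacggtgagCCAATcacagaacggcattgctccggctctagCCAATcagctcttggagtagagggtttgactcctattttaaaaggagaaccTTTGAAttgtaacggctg
Cenpa: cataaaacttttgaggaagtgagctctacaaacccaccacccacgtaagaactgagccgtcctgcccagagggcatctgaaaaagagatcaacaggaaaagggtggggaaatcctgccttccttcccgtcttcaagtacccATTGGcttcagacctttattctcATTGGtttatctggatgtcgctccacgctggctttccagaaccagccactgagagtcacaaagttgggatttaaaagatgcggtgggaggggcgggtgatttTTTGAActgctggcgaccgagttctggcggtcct

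At rest the members had a strong and common order over the lines, kidney lines highest, EpH4 between and NMuMG lowest. Both kidney lines were above both mammary lines for 46 of the 50 members, 27 of 27 of replication and 19 of 23 of mitosis, against 20.8% of all tested genes. NMuMG was the lowest line for 48 members, against 33% of all tested genes, and was at least 2-fold under each other line for 40, against 5.95%. The full order held for 44 members, against 11.8%. Over the members, the median gap between the mean of the kidney lines and NMuMG was 3.26 on the log2 scale, or 9.56-fold, while that of all tested genes was 0.08. Between the kidney lines the mProx minus MCT gap went both ways, above 0 for 29 members and below 0 for 21, with a median of 0.09 and a range of -1.44 to 1.30.

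**Figure D1:**
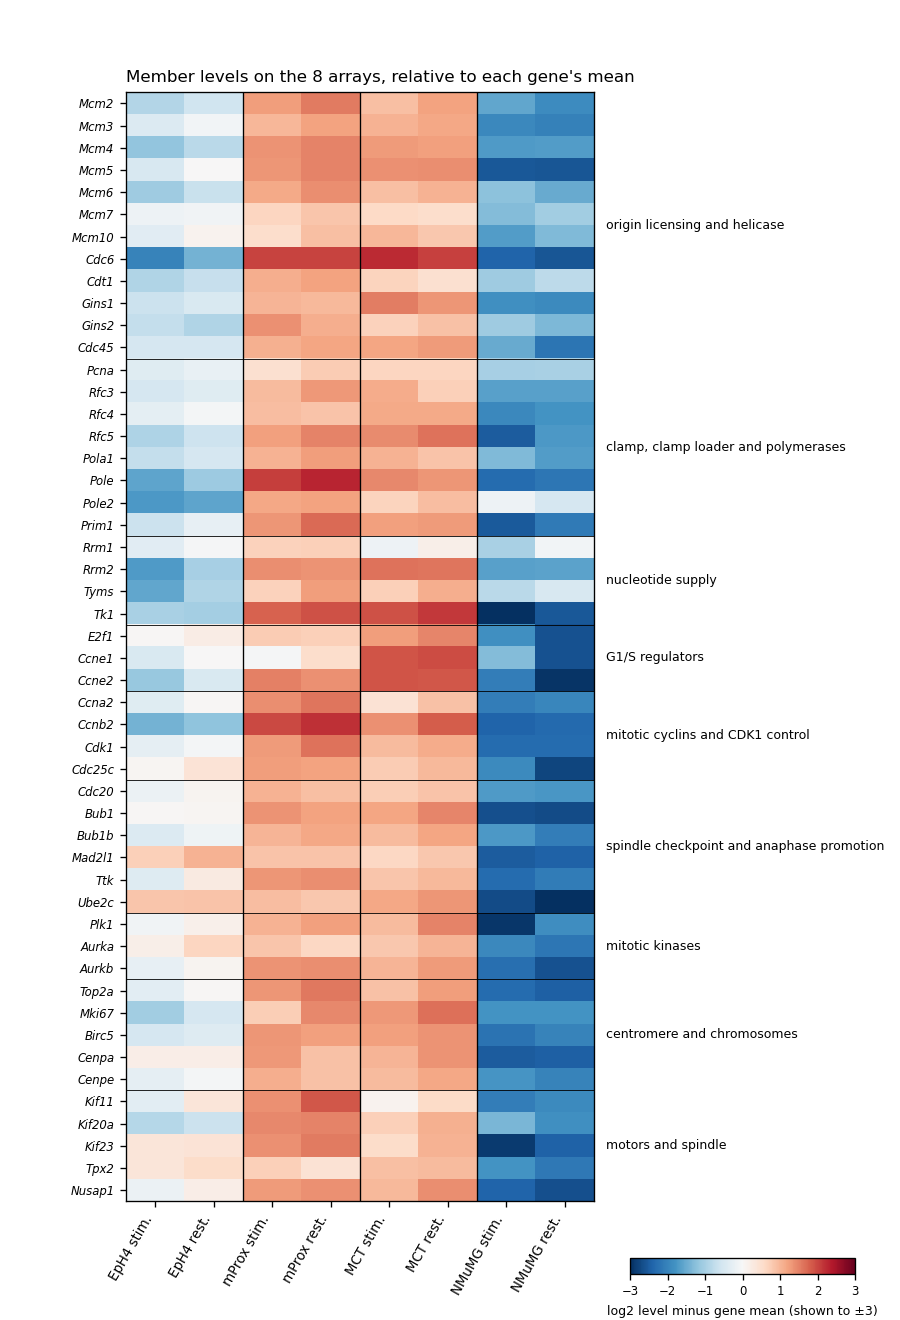
Log2 level of each member on the 8 arrays, relative to that gene's mean over the arrays; columns are the 4 lines, each stimulated then resting, and members are grouped by role. The kidney lines mProx and MCT are above the mean for nearly every gene, and NMuMG is lowest on 48 of the 50 genes at rest.

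The kidney minus mammary difference at rest was above 0 for all 50 members, with a median of 2.28 and a range of 0.49 to 4.04. With 2 lines on each side, limma called 0 members and 0% of 12697 genes at an adjusted p under 0.05. At an unadjusted p under 0.05, 37 of 50 members were higher in the kidney lines, 23 of replication and 14 of mitosis, and 0 were lower, against 4.73% and 2.65% of all tested genes. Rrm2 and Ccnb2 had the smallest adjusted p of the members, 0.321 in limma's test. A p that misses the threshold does not show equal levels. With 2 lines on each side, tissue of origin cannot be told apart from other differences between the lines. Over the members the median EpH4 minus NMuMG gap at rest was 1.79, against 1.33 for the kidney mean minus EpH4.

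Among the licensing genes, Cdc6, which recruits the MCM helicase to origins, had the largest kidney minus mammary difference of all members. Its resting levels were 9.83 in mProx and 9.84 in MCT, against 6.38 in EpH4 and 5.22 in NMuMG, a difference of 4.04 with an SE of 0.56 (limma adjusted p = 0.324). Mcm7, a subunit of that helicase, had the smallest gap of the group, with 13.07 in mProx and 12.75 in MCT, against 12.13 in EpH4 and 11.18 in NMuMG. The kidney values were thus above the mammary values for both genes, by very different amounts. Over the 12 genes of licensing and helicase, the kidney minus mammary difference had a median of 2.32.

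The other subunits of the MCM ring lay between these extremes. Mcm2 had 12.21 in mProx and 11.85 in MCT, against 10.05 in EpH4 and 8.75 in NMuMG. Mcm5 had 11.61 in mProx and 11.53 in MCT, against 10.13 in EpH4 and 7.57 in NMuMG, so its levels spanned more of the scale. Cdt1, the partner of Cdc6 in loading the ring, separated the kidney lines from the mammary lines, which lay close together. It had 12.37 in mProx and 11.64 in MCT, against 10.46 in EpH4 and 10.38 in NMuMG. Cdc45 and the GINS subunit genes Gins1 and Gins2, which activate the loaded helicase, kept the common order of kidney lines, EpH4 and NMuMG. Cdc45 had 9.46 in mProx and 9.55 in MCT, against 7.78 in EpH4 and 6.08 in NMuMG.

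Of the polymerase group, Pole2, a subunit of the leading-strand polymerase, went against the common order. It had 9.84 in mProx and 9.56 in MCT, against 7.05 in EpH4 and 8.12 in NMuMG, so EpH4 was the lowest line. Tyms, the thymidylate synthase gene, shared this order, with a dim value in EpH4. It had 7.29 in mProx and 7.14 in MCT, against 5.13 in EpH4 and 5.56 in NMuMG. Rrm1 and Rrm2, which encode the subunits of ribonucleotide reductase, were unlike each other. Rrm2, the subunit whose abundance follows S phase, had 12.15 in mProx and 12.40 in MCT, against 9.80 in EpH4 and 9.19 in NMuMG. Rrm1 had 11.31 in mProx and 10.77 in MCT, against 10.57 in EpH4 and 10.52 in NMuMG, the smallest kidney minus mammary difference of all members (0.49, SE 0.32).

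Of the mitotic genes, Ccnb2 had the largest kidney minus mammary difference. Its resting levels were 11.57 in mProx and 11.19 in MCT, against 8.16 in EpH4 and 7.04 in NMuMG (3.78, SE 0.51, limma adjusted p = 0.321). Cdk1, the kinase that B-type cyclins activate, had 12.46 in mProx and 11.94 in MCT, against 10.77 in EpH4 and 8.52 in NMuMG. The kidney lines differed by over 2-fold from each other for Kif11 and Ccne1, in opposite directions. Kif11 had 10.46 in mProx and 9.17 in MCT, and Ccne1 had 8.41 in mProx and 9.85 in MCT.

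The place of EpH4 between the other lines differed between the gene groups in the median. For replication genes EpH4 lay nearer to NMuMG, with a median kidney minus EpH4 gap of 1.72 and a median EpH4 minus NMuMG gap of 1.16. For mitotic genes it lay nearer to the kidney lines, with medians of 1.18 and 2.37 for the same gaps. Over all tested genes these medians were -0.03 and 0.15. Some genes of each group went the other way. E2f1, Ccne1 and Ccne2 together had medians of 1.23 and 2.64 for these gaps. Mcm5 had 1.43 and 2.57, and the mitotic gene Ccnb2 had 3.22 and 1.12. Of the replication genes 17 of 27 were at least 2-fold higher in resting EpH4 than in resting NMuMG, and of the mitotic genes 23 of 23, against 2233 of all 12697 tested genes. The contrast is one of medians, and the ranges of the EpH4 minus NMuMG gap overlap, from -1.08 to 2.83 for replication genes and from 1.12 to 4.07 for mitotic genes.

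**Figure D2:**
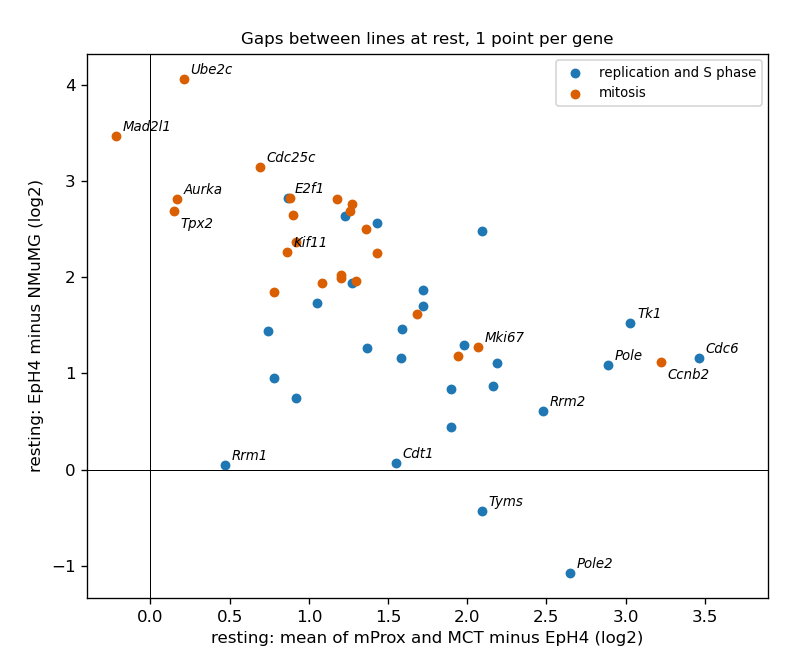
Each point is 1 member at rest, with the mean of mProx and MCT minus EpH4 on the horizontal axis and EpH4 minus NMuMG on the vertical axis, both in log2 units. Replication genes sit lower on the vertical axis (median 1.16) than mitotic genes (median 2.37), and Pole2 and Tyms lie under 0.

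The 4 members for which EpH4 was at or above the lower kidney line were all mitotic. Ube2c, the ubiquitin-conjugating enzyme of the anaphase-promoting complex, had 11.61 in resting EpH4, against 11.56 in mProx, 12.08 in MCT and 7.54 in NMuMG. Mad2l1, a spindle checkpoint gene, had 11.25 in resting EpH4, against 11.06 in mProx, 11.01 in MCT and 7.78 in NMuMG. For these genes 3 lines lay close together and NMuMG stood apart. Aurka and Tpx2, the kinase and its activator on the spindle, had the same pattern, with 9.96 and 9.90 in EpH4 and 7.14 and 7.22 in NMuMG. Over all tested genes EpH4 was at or above the lower kidney line for 63.8%, so being under both kidney lines, as 46 members were, was the less common state.

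A like order of the lines was seen in stimulated cells. On the stimulated arrays both kidney lines were above both mammary lines for 49 of 50 members, against 18.5% of all tested genes, and NMuMG was lowest for 47, against 30.8%. The median kidney minus NMuMG gap was 2.96 in stimulated cells, against 3.26 at rest. Members at least 2-fold lower in NMuMG than in each other line numbered 31 in stimulated cells (4.94% of all tested genes), against 40 at rest (5.95%).

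The response to TGF-β1 and EGF was small beside these gaps and did not run the same way in every line. In EpH4 48 of 50 members were below their resting level, against 50.4% of all tested genes, with a median change of -0.29. In mProx 33 were below it (49.2% of all tested genes), with a median of -0.14, and in MCT 39 (52.1%), with a median of -0.17. In NMuMG 23 were below it (45.4%) and 27 above it (54.6%), with a median of 0.02. Over the 4 lines the class medians were -0.30, -0.16, -0.03 and 0.01 for replication genes and -0.28, -0.06, -0.26 and 0.06 for mitotic genes, in the order EpH4, mProx, MCT and NMuMG.

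**Figure D3:**
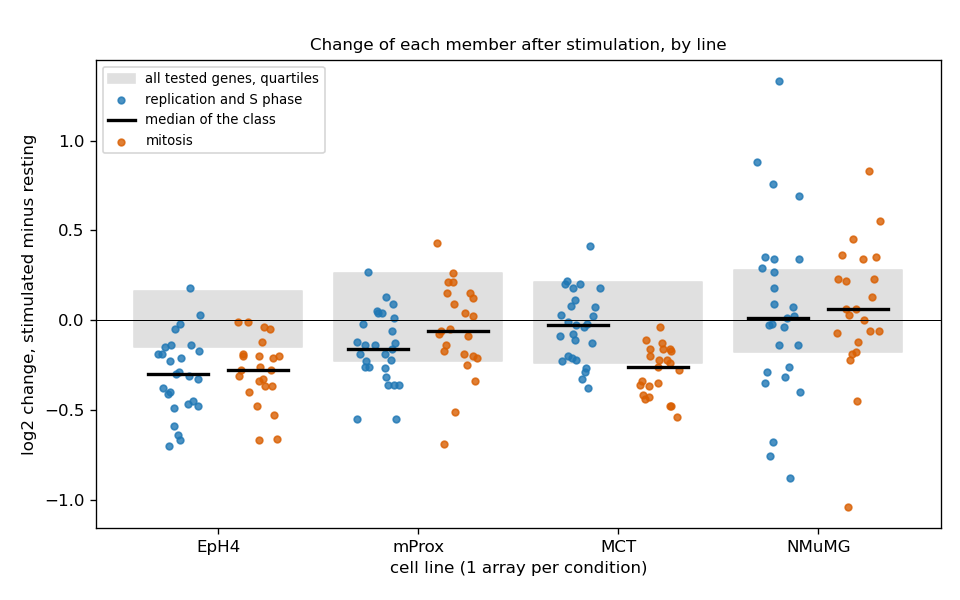
Log2 change, stimulated minus resting, of each member in each line (1 array per condition); points are genes, black bars class medians, and grey boxes the quartiles of all tested genes. In EpH4 48 of 50 members lie under 0, in MCT all 23 mitotic genes do, and in NMuMG the members spread from -1.04 to 1.33.

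Over all 4 lines limma called 0 of 50 members, against 0% of 12697 genes in either direction. At an unadjusted p under 0.05, 9 members were lower and 0 higher, against 5.27% and 6.18% of all tested genes. They were Rfc5, Prim1, Rrm1 and Tyms of replication and Ccna2, Plk1, Mki67, Kif11 and Kif23 of mitosis. The smallest adjusted p among members was 0.265, for Kif11. In the 3 lines without the EMT-resistance label, limma called 0 members, against 0.0394% of tested genes higher and 0.063% lower. At an unadjusted p under 0.05, 5 members were lower and 0 higher in these lines, against 6.11% and 6.44% of all tested genes.

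Below their resting level in all 4 lines were 12 members, against 9.18% of all tested genes, and above it in all 4 were 0, against 10.4%. The 12 were Pcna, Rfc5, Prim1, Rrm1, Tyms, Ccna2, Ccnb2, Plk1, Ttk, Mki67, Kif11 and Kif23. This holds for the chosen probe sets. Further probe sets were above rest in mProx for Kif23 (0.59), Rrm1 (0.14) and Prim1 (0.12), and in MCT for Prim1 (0.21) and Tyms (0.08). Kif11, the motor that holds the spindle poles apart, had 8.28, 9.95, 8.69 and 6.51 in stimulated EpH4, mProx, MCT and NMuMG, against 8.96, 10.46, 9.17 and 6.69 in the same lines at rest. Its mean change was -0.46 ± 0.21 (SD, n = 4; limma adjusted p = 0.265). The stimulated value was the lower one in every line, while the lines themselves lay further apart than the conditions. In NMuMG, 2 further Kif11 probe sets gave 0.21 and -1.11.

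Plk1, the kinase that drives mitotic entry and exit, had the most negative mean change of the members. It had 8.89, 10.04, 9.94 and 6.08 in stimulated EpH4, mProx, MCT and NMuMG, against 9.15, 10.22, 10.47 and 7.12 at rest. The change was -0.50 ± 0.39 (SD, n = 4; limma adjusted p = 0.309), and most of it came from NMuMG, at -1.04. Tyms followed with -0.47 ± 0.15 (limma adjusted p = 0.395), on levels that were dim on 3 arrays. Mki67, which encodes the proliferation antigen Ki-67, had a change of -0.53 for EpH4, -0.69 for mProx, -0.35 for MCT and 0.00 for NMuMG, where the stimulated value was marginally under the resting one.

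Within single lines few members lay far from rest. At least 1.5-fold below rest were 6 members in EpH4 (3.66% of all tested genes), 1 in mProx (7.67%), 0 in MCT (8.13%) and 4 in NMuMG (6.23%). At least 1.5-fold above rest were 5 members in NMuMG (10.2%) and 0 in EpH4 (4.67%), mProx (8.78%) and MCT (7.6%). In NMuMG Ccne1 was over 2-fold above rest on its chosen probe set, and Plk1 was over 2-fold below rest. Over all tested genes these shares were 3.02% and 1.99%. No member's chosen probe set reached 2-fold either way in EpH4, mProx or MCT. Over all genes the shares above and below were 1.3% and 1.03% in EpH4, 2.79% and 2.46% in mProx and 2.76% and 2.72% in MCT. Further probe sets were over 2-fold below rest in EpH4 for Mcm3 (-1.28), Cdc20 (-1.56) and Bub1 (-1.21). A further Cdc45 probe set gave 0.97 there. With 1 array per line and condition these counts have no replicate check.

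In EpH4 the members shared a direction, with a range of -0.70 to 0.18 over the chosen probe sets of all 50. Of these, Rrm2 had the most negative change, with 9.10 in stimulated and 9.80 in resting EpH4. In the other lines its stimulated levels were 12.19 in mProx, 12.42 in MCT and 9.17 in NMuMG, against 12.15, 12.40 and 9.19 at rest. Of 2 further Rrm2 probe sets, with -0.61 and -0.65 in EpH4, one gave -0.42 in MCT and -0.44 in NMuMG. The difference of the EpH4 change from that of the other 3 lines was -0.71 (SE 0.19, unadjusted p = 0.00755, adjusted p = 1 in limma's test). Cyclin E2, encoded by Ccne2, had a difference of -1.02 (SE 0.43, unadjusted p = 0.0484, adjusted p = 1 in limma's test). Limma called 0 members for this difference, against 0% of all tested genes. At an unadjusted p under 0.05, 2 were lower and 0 higher, against 1.58% and 1.85% of all tested genes. The difference was below 0 for 42 members and above 0 for 8, with a median of -0.22. As 0 members passed the adjusted threshold, a response of EpH4 unlike that of the other lines was not shown for any single member.

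The class medians lay furthest apart in MCT. Of the replication genes 16 of 27 were below rest there, with changes from -0.38 for Tyms to 0.41 for Rfc3, while all 23 mitotic genes were, from -0.54 for Plk1 to -0.04 for Tpx2. The replication minus mitotic difference of medians was 0.23 in MCT, against -0.02 in EpH4, -0.10 in mProx and -0.06 in NMuMG. In both EpH4 and MCT, 14 of 27 replication genes and 23 of 23 mitotic genes were below rest, against 28.2% of all tested genes. No test is given for the class difference, since the line offers 1 pair of arrays.

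The clamp loader subunit gene Rfc3 had 10.41 in stimulated and 10.00 in resting MCT, and Cdc6 had 10.04 in stimulated and 9.84 in resting MCT. Of the mitotic genes, Ccna2, the cyclin of S phase and G2, had 10.25 in stimulated and 10.69 in resting MCT. Ccnb2, a B-type cyclin that activates CDK1, had 10.76 in stimulated and 11.19 in resting MCT. The licensing and helicase genes split evenly, 6 below and 6 above rest, with a median of 0.01, and the 5 genes of motors and spindle were all below rest, with a median of -0.42.

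Of the 9 replication genes with an E2F motif, 4 were below rest in MCT (median 0.08), and of the 13 without it, 11 were (median -0.09). The 4 replication genes with CHR and CCAAT letters, Mcm2, Mcm7, Cdc45 and Rfc3, had 2 below rest and a median of 0.00. Of the 14 mitotic genes with CHR and CCAAT letters, 14 were below rest (median -0.31), as were the 4 mitotic genes without them (median -0.20). Among the genes whose windows are printed, the MCT changes were 0.20 for Cdc6, 0.41 for Rfc3 and -0.13 for Mcm6, and -0.54 for Plk1, -0.22 for Aurka and -0.34 for Cenpa. Replication genes below rest with and without an E2F motif numbered 9 of 9 and 12 of 13 in EpH4. These counts were 8 of 9 and 10 of 13 in mProx. For NMuMG they were 2 of 9 (median 0.09) and 9 of 13 (median -0.14), so a split was not particular to MCT.

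NMuMG had the widest range of changes, on levels that were the lowest of the lines. Its G1/S regulators were above rest together. E2f1, the transcription factor of S-phase entry, had 6.89 in stimulated and 6.13 in resting NMuMG. Cyclin E1 (Ccne1) had 6.59 in stimulated and 5.26 in resting cells, and Ccne2 had 5.67 and 4.80, with the resting values dim. In EpH4 the same genes were below rest, with changes of -0.17 for E2f1, -0.47 for Ccne1 and -0.67 for Ccne2. A further Ccne1 probe set gave a smaller change, 0.36 in NMuMG and -0.19 in EpH4.

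The nucleotide supply genes of NMuMG lay the other way. Rrm1 had 9.64 in stimulated and 10.52 in resting NMuMG, and the salvage kinase gene Tk1 had 5.86 and 6.54. Tyms had a change of -0.32 and Rrm2 one of -0.02. Of the mitotic genes in NMuMG, Plk1 (-1.04) and Kif23 (-0.45) were below rest, while Ube2c (0.55), Kif20a (0.45) and the dim phosphatase gene Cdc25c (0.83) were above it. A further Cdc25c probe set gave the opposite sign there, -0.89. The middle 50% of changes in this line ran from -0.27 to 0.31 for replication genes and from -0.10 to 0.29 for mitotic genes, against -0.18 to 0.28 for all tested genes.

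**Figure D4:**
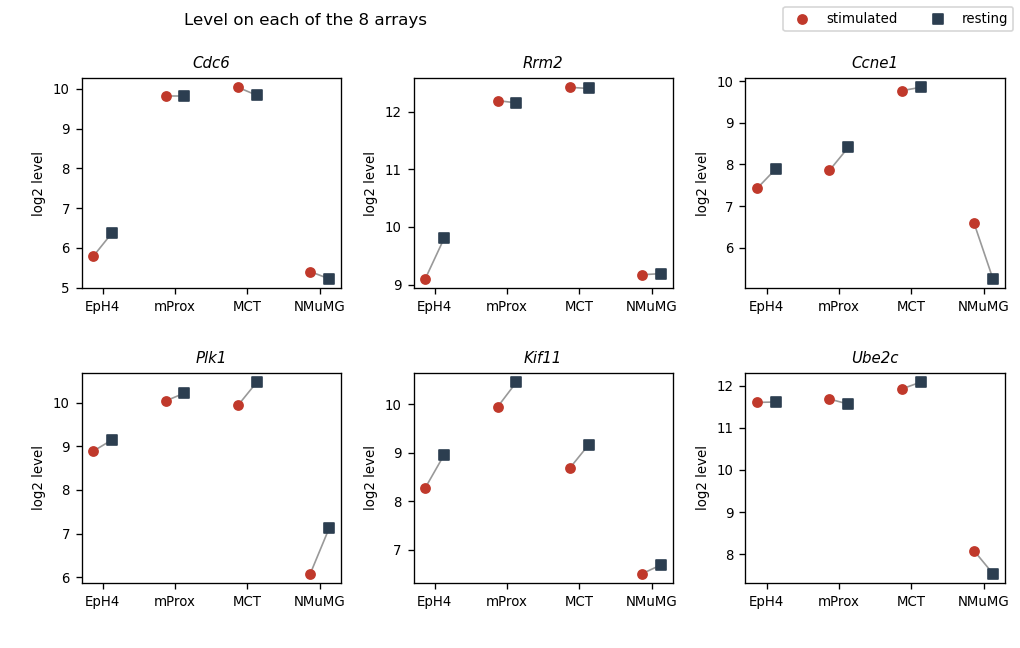
Log2 level of 6 members on each of the 8 arrays, stimulated (red circles) left of resting (dark squares) within each line. Rrm2 differs between conditions mainly in EpH4 (9.10 stimulated, 9.80 resting), Ccne1 is higher after stimulation in NMuMG (6.59, against 5.26 at rest), and Kif11 is lower after stimulation in all 4 lines.

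The MCM ring genes illustrate how the lines differed in response. In EpH4 the changes of Mcm2 to Mcm7 all lay below 0, from -0.48 for Mcm5 to -0.05 for Mcm7. In mProx they did so as well, from -0.32 for Mcm2 to -0.14 for Mcm4. In MCT they ran from -0.29 for Mcm2 to 0.08 for Mcm7, and in NMuMG from -0.26 for Mcm7 to 0.34 for Mcm2. A further Mcm2 probe set gave the opposite sign in 3 lines, with 0.28 in EpH4, 0.06 in MCT and -0.11 in NMuMG, and -0.26 in mProx. In NMuMG further probe sets reached 0.78 for Mcm3, 0.67 for Mcm5 and 0.40 for Mcm4. Those of Mcm7 gave -0.24, -0.09 and 0.22 there. In mProx further probe sets of Mcm3 (0.07), Mcm5 (0.07) and Mcm6 (0.04) were above rest, and in EpH4 a further Mcm3 probe set gave -1.28. Pcna, the sliding clamp of the polymerases, was just under its resting level in each line, with a change of -0.14 for EpH4, -0.27 for mProx, -0.01 for MCT and -0.04 for NMuMG. None of these passed the test over the 4 lines, and the SD over lines was larger than the size of the mean change for each of Mcm2 to Mcm7 and for Pcna.

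In mProx 20 of 27 replication genes and 13 of 23 mitotic genes were below rest. With arrays centred on their medians in place of quantile normalisation these counts were 16 and 13, and the class medians -0.05 and -0.04. Mki67 had the most negative change there, with 10.44 in stimulated and 11.13 in resting mProx. The centromeric histone gene Cenpa had the most positive one, with 11.25 in stimulated and 10.82 in resting mProx, and its change was -0.34 in MCT. In mProx, 2 further Cenpa probe sets of low level gave -0.07 and -0.31. The clamp and polymerase genes were below rest in 7 of 8 cases, with a median of -0.24. The spindle checkpoint and anaphase genes were below it in 2 of 6, with a median of 0.07.

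Of the 36 members with several probe sets, 31 had others whose own mean level reached 5.27, 45 in all. They gave the same direction as the chosen probe set in 42 cases for EpH4, 25 for mProx, 31 for MCT and 36 for NMuMG. The median absolute difference between them was 0.14, 0.19, 0.15 and 0.34 in these lines. A single gene's change of that size is no larger than the difference between its own probe sets, which was widest in NMuMG.

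Other genes of the same processes gave no calls either. Of 44 other replication genes, 72 other mitosis genes and 46 regulators of the cell cycle that were tested, limma called 0 in each of the 4 comparisons. In the 3 lines without the EMT-resistance label it called 0.0394% of all tested genes higher and 0.063% lower, and 0% in the other comparisons. In EpH4, 33 of 44 other replication genes were below rest (median -0.19) and 65 of 72 other mitosis genes (median -0.30). Over all tested genes 50.4% were below rest there. In MCT the medians were -0.06 for other replication genes and -0.10 for other mitosis genes, so the gap between the classes was narrower than among the members. In NMuMG the other mitosis genes had a median of 0.15. At rest the kidney minus mammary difference had a median of 1.69 for other replication genes and 1.82 for other mitosis genes.

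Among the regulators E2f8, an atypical E2F that represses S-phase genes, was below rest in all 4 lines, with a change of -0.72 for EpH4, -0.67 for mProx, -0.53 for MCT and -0.30 for NMuMG (limma adjusted p = 0.214). Cdkn1b, the gene of the CDK inhibitor p27, was too, with a mean change of -0.45 ± 0.23 (SD, n = 4; limma adjusted p = 0.22). The TGF-β-responsive CDK inhibitor genes had other patterns. Cdkn2b had changes of 1.55 in mProx and 1.38 in MCT, but 0.15 in NMuMG, and it was dim on both EpH4 arrays. Cdkn1a had changes of 2.00 in mProx, 0.86 in MCT, -0.01 in EpH4 and -0.44 in NMuMG. The growth-promoting genes Myc and Ccnd1 were also above rest in the kidney lines, Myc by 1.72 in mProx and 1.57 in MCT and Ccnd1 by 2.71 and 0.30. Foxm1, a transcription factor of the mitotic program, had a change of -0.41 for EpH4, -0.36 for mProx, -0.32 for MCT and 0.21 for NMuMG. Mybl2, also among the regulators, had -0.31 for EpH4, 0.41 for mProx, 0.24 for MCT and 0.14 for NMuMG.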

How the data were processed

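Total RNA was biotin-labelled and hybridised to Affymetrix whole-genome mouse arrays, per the labels. The deposited table holds linear array intensities, 1 per probe set and array, made by the authors with MAS5 per the submitters' processing notes, which name neither its version nor its scaling.

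From these, 64 control probe sets of 45101 were left out, 10.6 (percentile 25 of positive signals) was added, and log2 values were quantile-normalised. Quantile normalisation removes any change in the overall signal distribution. Symbols came from the platform annotation, where 34945 probe sets had 1 symbol, 932 several and 9160 none. Genes with a mean level of at least 5.27 (percentile 40 over probe sets) were tested.

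Tests used lmFit and eBayes (with an intensity trend) of limma 3.58.1 under R 4.3.3, with Benjamini-Hochberg adjustment over all 12697 tested genes and a threshold of 0.05. Responses had the line as a block. Arrays were paired by the name of the line, and paired arrays deviated together from their group means, with correlations across genes of 0.905, 0.827, 0.812 and 0.874. Tests were checked on simulated data. The number of arrays limits the precision.

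The members and gene lists were chosen with earlier results of these data known. All members may be named. From each of the 3 other lists up to 4 genes each way with the largest mean change among those changed one way in all 4 lines, plus 8 regulators, may be named. Promoters shown are, per class, the 3 with the motif whose changes had the largest SD over lines. Alternatives were other offsets, normalisations, filters and probe set rules, no intensity trend, no replicate block, and each line left out.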

Additional observations from a re-analysis of the deposited data

Results flagged for a closer look

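In 6 of 100 sets of 4 arrays (50 members, stimulated and resting), 1 array stood apart from the other 3 by Dixon's criterion, and chance gives about 1 in 20. In all 6 it was the NMuMG array, as the lowest. At rest these were Aurka at 7.14, Mad2l1 at 7.78, Tpx2 at 7.22 and Ube2c at 7.54, and after stimulation Mad2l1 at 7.71 and Ube2c at 8.08. All of them are mitotic genes. That their other 3 lines lay close together is part of the criterion and not a separate result.

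For 4 members the EpH4 change had one sign and those of the other 3 lines the opposite sign. In EpH4 it was -0.59 for Cdc6, -0.19 for Gins1, a subunit of the replicative helicase, -0.67 for Ccne2 and 0.03 for Tk1. That opposite direction was not tested as such, and limma's test of the EpH4 change against the other 3 lines gave an adjusted p of 1 for each of them.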

How the results depend on the processing

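In every alternative run, 0 members passed the threshold in each of the 4 comparisons, with a limma adjusted p of at least 0.0932. Without the replicate block, 0 members and 0 genes passed in either response, at a smallest member p of 1 after limma's adjustment. Leaving out each line gave 0 to 0 members passing, while the members past an unadjusted 0.05 numbered 5 without EpH4 or mProx and 15 without NMuMG in the 4-line response (9 with all lines). In the resting comparison they numbered 15 without mProx, 18 without MCT and 49 without EpH4 (37 with all lines), where the lone line of a side is assumed to vary like the others. EpH4 cannot be left out of its own comparison. With all probe sets averaged, 49 members were tested.

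On the values as deposited, the replication medians were -0.59 in EpH4, -0.21 in MCT and 0.31 in NMuMG, and the mitotic medians -0.55, -0.49 and 0.37, which hold the shift of all genes in those lines (-0.28, -0.24 and 0.34). The replication minus mitotic difference in MCT was 0.22 to 0.28 in all settings run. With arrays centred on their medians, the replication medians were 0 in MCT and 0.14 in NMuMG, against -0.03 and 0.01 after quantile normalisation.

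Over all genes, the 4-line response called 0, but 237 on the deposited values, 28 with median centring, 8 with an offset of 50, 1 with an offset of 1 and 13 without EpH4. The 3-line response called 13, but 215, 85, 6 and 14 in the same alternatives, 8 with probe sets averaged, 0 without the filter, 0 without the intensity trend, and 12 to 63 with a line left out. On the deposited values the EpH4 difference called 5 and the resting comparison 6, against 0. The cause was not tested. Dim signals limit the sizes of Tyms, Cdc25c and the cyclin E genes.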
